A study of Mus musculus with 2 samples.

Results

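Chromatin immunoprecipitation followed by sequencing (ChIP-seq) located a chimeric double-homeodomain protein, MMH, in C2C12, a long-established mouse myoblast cell line. This account covers 10 single genes that lie beside some of its strongest peaks and belong to no known family of the 2-cell embryo: *1110059E24Rik*, *Tmem156*, *Tmem131*, *D830031N03Rik*, *Nkain2*, *Etfbkmt*, *Abhd3*, *Btbd1*, *Fbxo24* and *Fam207a*. They are 10 of 21900 protein-coding genes in the RefSeq table. The genes were chosen by the strength of a peak at each of them, so the height of that peak describes the choice and was not tested. All peaks with a summit inside such a gene or within 20 kb of either end were then taken, which gave 68 of the 51356 peaks in the authors' deposited table.

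The cells were a monoclonal line, so a single clone stands for the model. Its doxycycline-inducible, codon-altered MMH transgene joins the mouse Dux homeodomains to the part of human DUX4 that follows its own homeodomains. The 2 libraries both came from cells induced with 2 ug/ml doxycycline for 18 h. In 1 of them the precipitation used the DUX4 antisera MO488 and MO489, and the control precipitation was labelled anti-HA, although the series' design text names an antibody to GFP. Per the file headers, 26253175 antisera fragments and 23412256 control fragments remained after duplicates were removed. Redundant fragments made up 20% of the antisera library and 42% of the control library. With 1 library per group there is no replicate check, and no cells without the transgene were analysed here.

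Dux and DUX4 are transcription factors of the cleavage-stage embryo. Each binds DNA through a pair of homeodomains that lie side by side in the protein, and the carboxy-terminal part recruits coactivators. A peak in a ChIP-seq list marks DNA that was recovered with the protein, and by itself says nothing about the expression of a gene nearby. The genes described here have no common pathway. They include transmembrane proteins, adaptors and receptors of ubiquitin ligases, a lipase and a protein methyltransferase.

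For each gene the peak with the largest −log10 p within the 20 kb window is called the lead peak, and all others are secondary. The pileup counts the antisera fragments that cover a summit. Fold enrichment is the authors' ratio of pileup to local background, where the background derives from the control library and cannot fall below a genome-wide floor of 4.01 fragments. Over all peaks the median pileup was 41 fragments and the median fold enrichment was 8.02. Lead peaks of the 10 genes had pileups of 423 to 3431 fragments. Each ranked among the 200 strongest peaks by −log10 p, the last of them, at *Btbd1*, in place 164.

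*1110059E24Rik*, named by its cDNA clone, stood apart from the other nine. Its lead peak (chr19:21602857-21604240, mm10) held 3431 fragments over a local background of 8.41, which is 365-fold (95% Poisson interval of the pileup with the background held fixed, 353 to 377). It took place 3 in the whole list by −log10 p and place 2 by fold. The next lead, at *Tmem156*, had a pileup of 739, so that the pileup at *1110059E24Rik* was 4.64 times higher. The background at *1110059E24Rik* was the single one among the lead peaks to exceed the floor. The remaining 9 leads lay at 4.01 fragments, where the local control level did not exceed the genome-wide one.

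The other leads fell in a narrow range. Fold enrichment was 148 (137 to 159) at *Tmem156*, 125 (115 to 135) at *Tmem131* and 113 (104 to 123) at *D830031N03Rik*. *Fbxo24* followed with 109 (100 to 119), and *Nkain2* with 93.0 (84.7 to 102). The lowest were *Etfbkmt* with 90.8 (82.6 to 99.5), *Fam207a* with 88.4 (80.3 to 97.0), *Abhd3* with 87.0 (79.0 to 95.5) and *Btbd1* with 84.6 (76.7 to 93.0). Of the 9 pairs of neighbours in this order, 7 had overlapping counting intervals. Those 7 pairs run from *Tmem131* downward. Overlapping intervals do not by themselves show that the counts are alike, the difference within a pair was not tested, and variation between cultures was not measured.

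**Figure D1:**
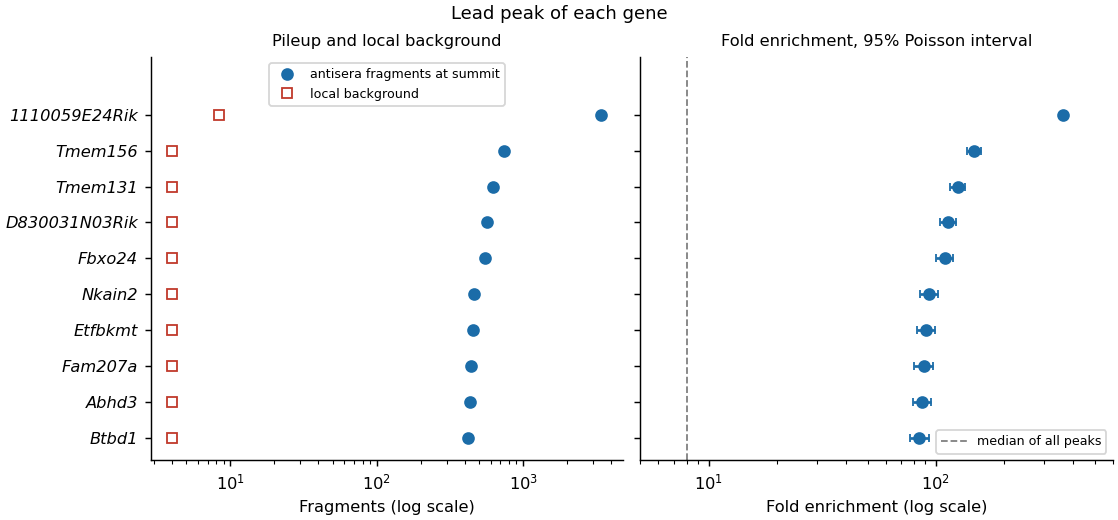
Lead peak of each gene. Left, antisera fragments at the summit (filled circles) and local background (open squares) on a log axis; right, fold enrichment with its 95% Poisson interval on a log axis, with the median of all 51356 peaks dashed. *1110059E24Rik* has 3431 fragments over a background of 8.41, and the other leads lie between 423 and 739 fragments over 4.01.

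The list has no clean lower edge. When coding genes were ranked by the −log10 p of their strongest peak within 5 kb of a gene end, 9 of the 10 genes were among the first 27, together with 18 others. Those 18 include genes of families that the choice left out, such as *Zscan4c*, *Duxf3* and *Usp17le*. They also include other genes such as *Arl6*, in place 1 with 333-fold, *Prkd2* and *Trim72*. Neighbouring genes can share a summit, as *Prkd2* and *Dact3* do, so the ranking holds fewer peaks than genes. *1110059E24Rik* was left out of this ranking because its summit lies 6051 bp from the nearer end. *Btbd1*, the weakest member, had a −log10 p of 677 in place 27. Just outside came *Pramel11*, of the Prame-like family, with 669 (83.8-fold), *Spock3* with 667 (83.6-fold) and *Gpr63* with 666 (82.0-fold).

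Lead peaks were 625 to 1401 bp wide, with a median of 770 bp. Over the 147 peaks of the list whose pileup lay between 423 and 739 fragments, the median width was 831 bp, and 3 of the 9 leads in that range exceeded it. The widest was at *Etfbkmt*, 1401 bp for 454 fragments, a width reached by 17 of those 147 peaks (11.6%). The *Abhd3* lead had a similar pileup of 435 fragments in 625 bp, so the *Etfbkmt* peak was 2.24 times wider. Its summit sat off centre, 848 bp from the lower edge and 552 bp from the upper. At *Tmem131* the arms were 335 and 922 bp. At *D830031N03Rik* they were nearly equal, 395 and 386 bp.

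The lead summit lay inside the gene at 6 of the 10 genes and outside it at 4. Among the 13633 coding genes with a peak in their window, the strongest summit was inside the gene in 39.5%. The lead summit lay within 5 kb of an end in 9 of the 10 genes, against 27.7% of those coding genes. The 10 genes were chosen for lying at or beside a strong peak, and nearness to an end helped to choose them. Nothing is therefore read from either count. The median distance from lead summit to nearer end was 2616 bp, and 2 summits, at *Fam207a* and *Abhd3*, lay within 1 kb. Exons and introns were not used here, and the RefSeq promoter table gave a start site and strand for 6 of the 10 genes.

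Upstream of an annotated start lay 3 of the 6 leads with a known strand. *Etfbkmt* encodes the methyltransferase that modifies lysines of the electron transfer flavoprotein beta subunit in mitochondria. It is read on the plus strand, and its lead (chr6:149136915-149138315) peaked 3750 bp before the start site, 3713 bp outside the gene. *Nkain2* encodes a membrane protein that interacts with the sodium-potassium pump and is best known from brain. Its lead (chr10:32893675-32894432) peaked 4168 bp before the start in the promoter table, yet inside the annotated span, 3091 bp from its upper end.

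The other 3 lay downstream. *Tmem131* encodes a transmembrane protein with a part in collagen secretion, and its lead (chr1:36937139-36938396) peaked 2053 bp into the gene from the start. In *1110059E24Rik* the lead was 49427 bp past the start of a 55479 bp gene, 6051 bp before the opposite end. *D830031N03Rik*, an 8311 bp gene, had its lead (chr4:123401944-123402725) 9572 bp past the start, which is 1262 bp beyond the far end of the gene. The position of a lead against its gene thus ranged from upstream of the start to beyond the other end.

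Beside the annotated gene, some leads lay in a second one. The lead summit fell inside another annotated gene at 4 of the 10 genes, against 26.8% of coding genes with a peak. Because the 10 genes were chosen by their peaks, nothing is read from this count. *D830031N03Rik* lies wholly within *Macf1* (chr4:123349633-123687802), which encodes a large linker of actin and microtubules, and its lead is inside *Macf1*, 52706 bp from the nearer end. At *Fbxo24* the summit was in the pseudogene *Gm16089*, and at *Fam207a* in the noncoding RNA gene *2810425M01Rik*. The peak table does not say to which of these genes a peak belongs.

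*Fam207a*, related to the yeast ribosome biogenesis factor Slx9, had the lead closest to a gene end. The peak (chr10:77516439-77517066) held 442 fragments, and its summit was 164 bp inside the upper end of the gene and 947 bp before the start site in the promoter table. That start and the start of *2810425M01Rik*, which is read the other way, are 85 bp apart. The lead's edge was 376 bp from the *Fam207a* promoter window, so the promoter itself was not covered. It is printed because it lies nearer to its lead than the other promoters of these genes that the table holds (RefSeq, GRCm38.p6, chr10:77515764-77516063, minus strand, 250 bases before to 50 after the start).

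Fam207a promoter: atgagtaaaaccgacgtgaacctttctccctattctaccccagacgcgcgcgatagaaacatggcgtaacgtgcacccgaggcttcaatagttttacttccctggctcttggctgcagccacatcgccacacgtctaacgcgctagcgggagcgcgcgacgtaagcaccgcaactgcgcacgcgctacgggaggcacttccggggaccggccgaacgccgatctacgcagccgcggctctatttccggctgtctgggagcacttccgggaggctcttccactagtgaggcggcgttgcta

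*Fbxo24* encodes an F-box protein, a substrate receptor of SCF ubiquitin ligases. Its lead (chr5:137615358-137616066) held 547 fragments, 3198 bp inside the lower end. The same summit lay 4181 bp from the coding gene *Pcolce* and was also the strongest within 5 kb of an end of that gene. The pseudogene *Gm16089*, from 137615611 to 137616093, holds that summit, and no source used here says how reads with several possible origins were handled. A secondary peak of 92 fragments (18.6-fold, 15.0 to 22.7) lay 1019 bp from the lead, inside the gene. On the low-coordinate side of the gene, peaks of 55 fragments (11.1-fold) and 23 fragments (4.79-fold, 3.11 to 7.08) lay 8704 and 11294 bp outside. The last of these (chr5:137601043-137601417) overlapped a promoter of *Mospd3*, which encodes a membrane protein with a major sperm protein domain, and its summit was 152 bp before that start site. Of 19 promoter entries around the 10 genes it was the single one to meet a peak. Among those entries, *Gm20605* and *Lrch4* share the same window, which is counted for each. Among all 32851 promoters with a RefSeq sequence, 2.17% did. Its sequence (RefSeq, GRCm38.p6, chr5:137601010-137601309, minus strand) carries the homeodomain hexamer TAATCA, in capitals, starting 242 bases before the start. In all, 3 of the 19 entries held the hexamer, and the rest of these, at *Pcolce* and *Gm36040*, met no peak.

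Mospd3 promoter: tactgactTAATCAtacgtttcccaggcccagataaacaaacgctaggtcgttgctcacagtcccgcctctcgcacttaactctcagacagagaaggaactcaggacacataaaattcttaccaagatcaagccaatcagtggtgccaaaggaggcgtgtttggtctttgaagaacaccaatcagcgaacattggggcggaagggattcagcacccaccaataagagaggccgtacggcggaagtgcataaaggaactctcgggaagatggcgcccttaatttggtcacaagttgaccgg

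Both strands of the promoter windows were searched for that hexamer and for GATTNAATC, the middle of the known Dux site. The hexamer occurred in 7.97% of all 300-base promoters and GATTNAATC in 0.268%. Of the 6 promoters of the genes themselves, 0 held either motif and 0 were covered by a peak. A match is a description of letters only, and the sequence under the lead peaks was not analysed here.

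Secondary peaks were found at 9 of the 10 genes, 58 in all. A summit in the window was found for 13633 coding genes (62.3% of all) and 2 or more for 7643 (34.9% of all). Each of the 10 genes has a lead by choice, so the like comparison is 7643 among those 13633. Of the 10 genes, 7 were longer than the median coding gene of 17146 bp, and nothing is read from the count of 9. The 10 windows held 2.89 secondary peaks per 100 kb, and 2.90 without *Nkain2*, against 1.92 peaks of any kind per 100 kb over the windows of all coding genes. The 1.92 includes coding genes without any peak, while each of the 10 genes has a lead by choice. Overlapping windows also count a peak more than once. Nothing is read from this difference, which was not tested. By definition, secondary peaks leave out the strongest peak of each window, while the full list includes such peaks. Lower heights partly follow from that. The median fold enrichment of secondary peaks was 7.08, below the 8.02 of all peaks, and 24 of 58 exceeded 8.02. Above 20-fold stood 5 of the 58, compared with 13.7% of all peaks. *Nkain2* alone held 37 of the 68 peaks (54.4%), and without it there were 22 secondary peaks with a median of 7.67-fold, 11 inside the genes and 11 outside.

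**Figure D2:**
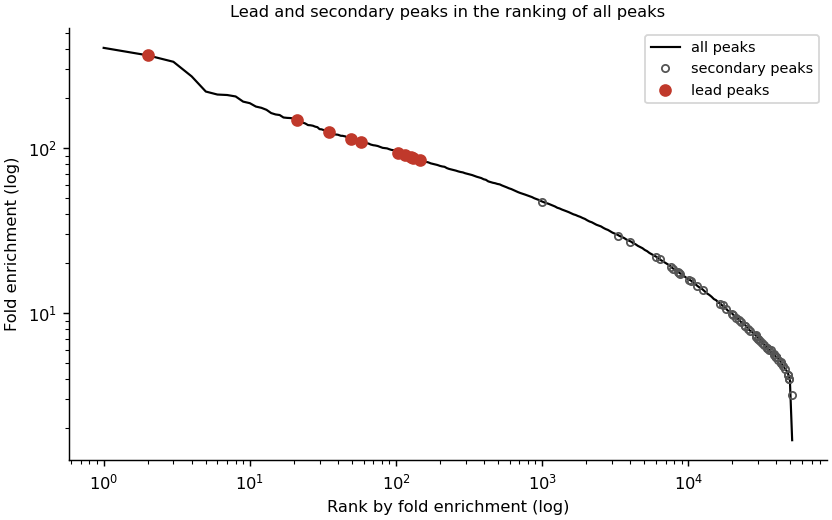
Fold enrichment against rank by fold, both on log axes, for all 51356 peaks (line), the 10 lead peaks (filled) and the 58 secondary peaks (open). Leads occupy places 2 to 145, and the highest secondary peak, at *Nkain2*, has 47.4-fold.

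The lead exceeded the second peak by 57.1 times at *1110059E24Rik*, the widest margin, and by 1.96 times at *Nkain2*, the smallest. The median over the 9 genes was 5.89. Over the 7643 coding genes with 2 or more peaks it was 1.65, but the members were picked for a strong lead, so this gap partly restates the choice. *Etfbkmt* had no secondary peak within 20 kb, although within 50 kb each of the 10 genes had a secondary peak. *1110059E24Rik* had 1 within 20 kb, of 31 fragments (6.38-fold, 4.40 to 8.98), 18623 bp outside the gene in the noncoding RNA gene *Gm38486*.

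*Tmem156*, a transmembrane protein gene, had its lead (chr5:65093188-65094276) 1492 bp outside its upper end. Both of its secondary peaks lay inside the gene. The stronger had 94 fragments (18.9-fold, 15.4 to 23.1) and was 11224 bp from the lead, and the weaker had 33 fragments (6.78-fold). At *Tmem131*, a gene of 147426 bp, all 3 peaks lay within 31128 bp of the upper end, where transcription starts. They fell in height away from it, from 624 fragments at the lead to 109 at 15234 bp and 56 at 31128 bp from the end, the last with 11.4-fold enrichment. No summit was found in the rest of that gene or its flanks. *Fam207a* had 1 secondary peak, of 39 fragments (7.98-fold), 4159 bp from its lead and inside the gene.

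*Abhd3* encodes an alpha/beta hydrolase that acts on phospholipids with medium-length acyl chains. Its lead (chr18:10706942-10707566) held 435 fragments and lay 452 bp outside the upper end, inside the noncoding RNA gene *4930563E18Rik*. It had the highest secondary peak outside *Nkain2*, 147 fragments (29.5-fold), farther out on the same side and 6767 bp from the lead. Another, of 105 fragments (21.1-fold, 17.3 to 25.6), lay inside the gene. The remaining 3 were weaker. Inside the gene, 48 fragments (9.77-fold) lay 5707 bp and 26 fragments (5.39-fold) 13599 bp from the lower end, and 30 fragments (6.18-fold) lay 6931 bp outside that end.

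*Btbd1* encodes a BTB-domain protein, a class that serves as adaptors of cullin-based ubiquitin ligases. Its lead (chr7:81824918-81825602) held 423 fragments, 4227 bp inside the upper end. The strongest of 3 secondary peaks, 88 fragments (17.8-fold, 14.3 to 21.8), lay 17705 bp outside that end in overlapping noncoding RNA genes, *Gm32695* and *Gm51491*. The other two, inside the gene, had 24 and 20 fragments. The second of these, at 4.19-fold, was 1048 bp from the end and took place 48519 of 51356 by −log10 p.

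The short gene *D830031N03Rik* had the densest window, 6 peaks or 12.4 per 100 kb, and none of the 6 summits lay inside it. All 6 were inside *Macf1*. Secondary pileups were 20 to 49 fragments. The lowest, 20 fragments (4.19-fold), lay 11228 bp outside the upper end. The peak nearest to the gene, 150 bp outside its end and 1112 bp from the lead, had 26 fragments (5.39-fold, 3.59 to 7.80). Another of 26 fragments lay 7781 bp outside the same end. The secondary peak of 49 fragments lay 15559 bp outside that end and was the highest by pileup, but had 7.36-fold enrichment over a background of 5.79, while the one of 43 fragments, 4844 bp outside the upper end, had 8.78-fold over the floor.

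**Figure D3:**
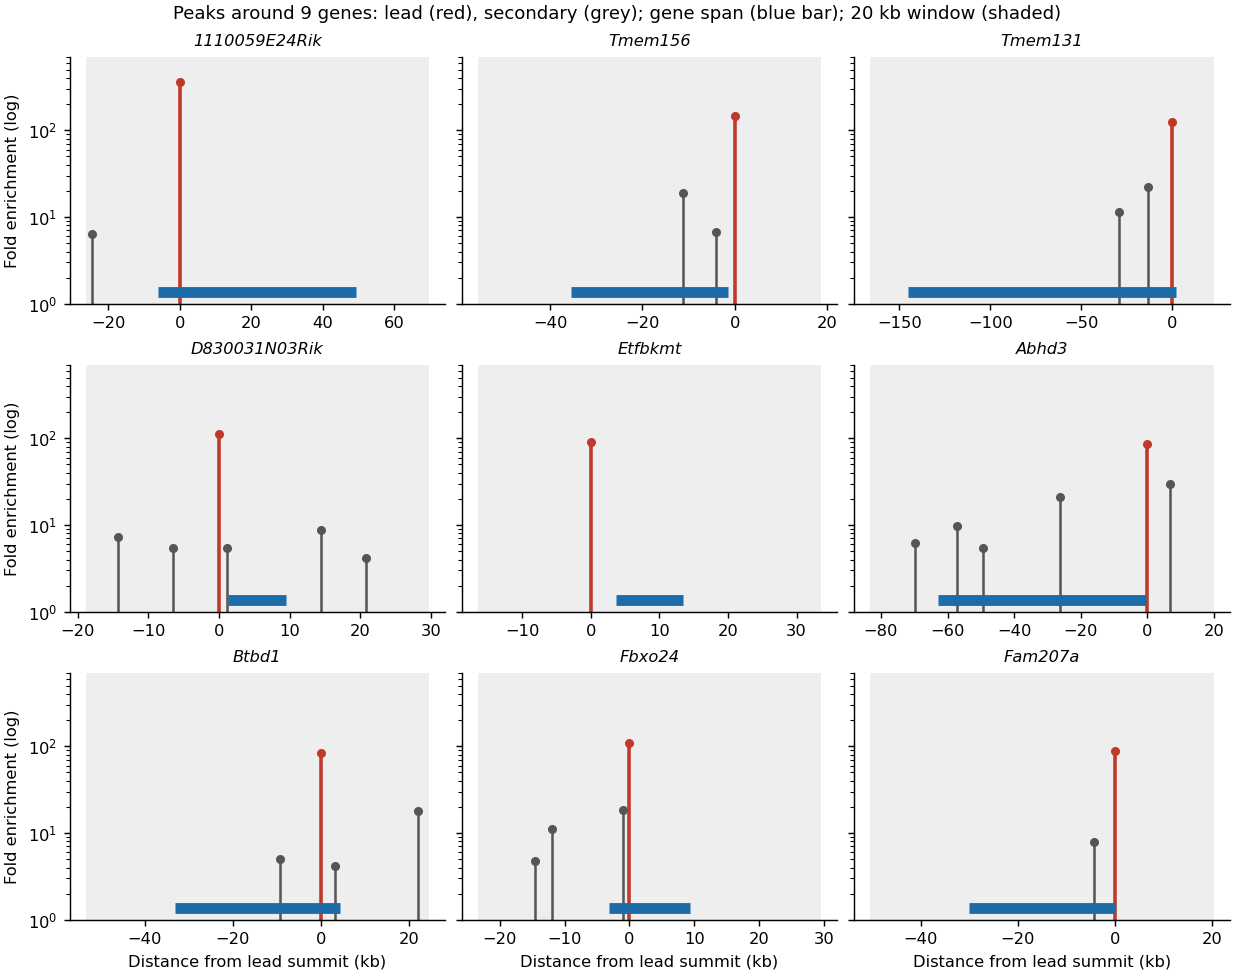
Peaks around 9 of the genes (*Nkain2* is drawn separately). The horizontal axis is distance from the lead summit in kb, the vertical axis is fold enrichment on a log scale, the blue bar is the gene and the shading its 20 kb window. Leads are red, and secondary peaks (grey) reach at most 29.5-fold.

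*Nkain2*, with 1207865 bp longer than 99.9% of coding genes, held 34 summits inside and 3 outside. Per 100 kb its window had 2.97 peaks. Summits were spread along the gene, with 9, 9, 8 and 8 in 4 equal stretches of 302 kb from the low-coordinate end. Gaps between neighbouring summits inside it had a median of 20707 bp and ranged from 1299 to 122902 bp. Fold enrichment was under 10 at 27 of the 37 peaks and over 20 at 3.

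Those 3 were far apart. The lead, near the upper end, had 465 fragments. The second (chr10:32663169-32663782) had 259 fragments (47.4-fold, 41.8 to 53.5) over a background of 4.49 and lay 233699 bp inside the gene from that end. The third (chr10:32140397-32141094) had 135 fragments (27.1-fold, 22.8 to 32.1) and lay 756420 bp from that end. Within 25 kb of the lead there were 6 secondary peaks, from 3.99-fold to 17.6-fold, of which the nearest was 1519 bp away.

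**Figure D4:**
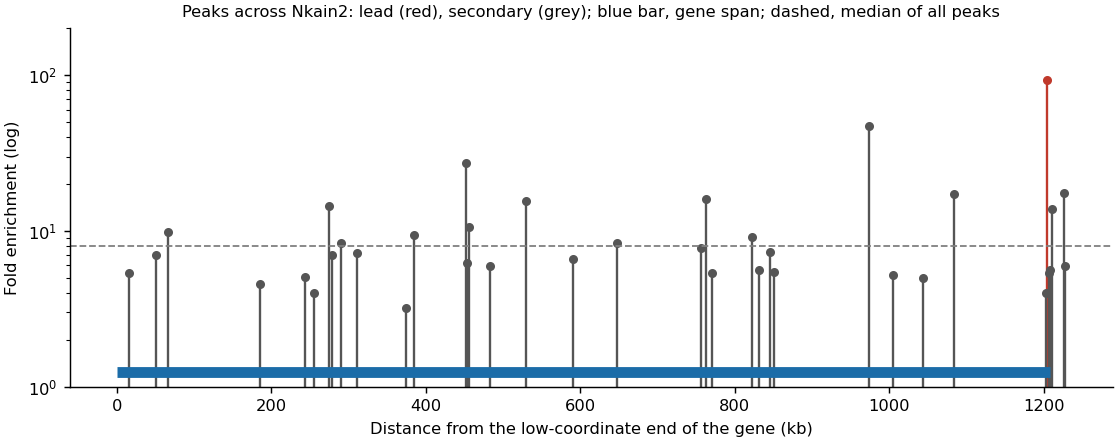
The 37 peaks of *Nkain2* by distance in kb from the low-coordinate end of the gene (blue bar), with fold enrichment on a log axis and the median of all peaks dashed. The lead (red, 93.0-fold) stands near the upper end, and 27 of the 37 peaks are under 10-fold.

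Relatives and partners of these genes were examined with the same 20 kb rule, and 15 of 16 listed names matched the RefSeq table. A peak was found at 9 of the 15 (60.0%), close to the 62.3% of all coding genes. Their strongest peaks ranged from 5.78-fold to 56.8-fold, below the weakest lead, but the members were picked for strong leads, so nothing is read from that gap. The strongest was at *Cul3*, the cullin that works with BTB proteins, with 11 peaks and 56.8-fold (50.5 to 63.8), 19960 bp inside the gene. *Nkain3*, a long relative of *Nkain2*, had 22 peaks led by one of 30.3-fold (25.7 to 35.5), while *Nkain1* and *Nkain4* had none.

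Among the subunits of SCF ligases, to which F-box proteins bind, the best peak was 19.9-fold at the scaffold *Cul1*, 6.64-fold at the RING subunit *Rbx1* and 5.78-fold at the adaptor *Skp1*. *Etfb*, whose product *Etfbkmt* modifies, had none, and neither had *Etfdh*, *Btbd2* or *Btbd6*. *Etfa*, the alpha subunit of the same flavoprotein, had 18.9-fold, *Tmem131l* 15.8-fold, *Abhd2* 15.2-fold and *Btbd3* 6.58-fold.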

How the data were processed

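ChIP-seq was measured in 1 antisera and 1 control library of induced C2C12 cells, grouped by antibody label. The submitters' processing notes name BWA, MACS2 and mm10. Per the file headers, peaks were called once with MACS 2.1.0.20151222 on paired-end fragments at a q-value threshold of 0.01, with 1 fragment kept per position. Alignment filters were not given in the sources used here.

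The deposited pileup is a signal, in fragments covering the summit, per the file headers. The deposited fold enrichment is a ratio with 1 added to pileup and local background, and the authors' table gives −log10 of p-values and q-values. These values describe and rank peaks within the list only.

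From them the local background was recovered as (pileup + 1) / fold − 1. It equalled the floor (tolerance 0.001) at 78.0% of all peaks and at 57 of the 68 described here. Gene spans came from RefSeq GRCm38.p6, the primary assembly of mm10. Intervals are 95% Poisson and cover counting error only. No test was run, since members were chosen on these peaks with 1 library per group. Members and lists were chosen with earlier results of these data known. Named were all members, every secondary peak up to 6 and otherwise the strongest 3, genes holding a lead, relatives, and the 3 coding genes below the weakest member. The *D830031N03Rik* window density, peak widths and arms, the *Mospd3* promoter and peaks near the *Nkain2* lead were described after their values were seen. So were the distance to *Pcolce* and the examples named from the ranking of coding genes. The window search was tested on simulated data. Alternatives were windows of 5, 10 and 50 kb, peak overlap, −log10 q of 5 and 20, the strongest 10%, backgrounds under 10, and other choices of lead. Python 3.11.15, pandas 2.3.3 and scipy 1.17.1 were used.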

Additional observations from a re-analysis of the deposited data

How the results depend on the processing

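The genes were chosen for strong leads, so stricter q-values or the strongest 10% of peaks could not remove a lead, and the unmoved lead values under them say nothing about stability. Choosing the lead by fold or pileup gave the same 10 lead fold enrichments. At 9 of the 10 leads the background was the floor, where fold follows from pileup alone. The genes were also chosen for strong leads, so this sameness says nothing about stability either. The number of secondary peaks depended on the threshold. All peaks at the 10 genes fell from 68 to 38 at a −log10 q of at least 20 and to 13 in the strongest 10% of peaks, where 2 genes still had a secondary peak. Leaving out *Nkain2*, an alternative chosen after the data were seen, left 31 peaks. Of the 15 matched relatives, 14 had a peak within 50 kb, as did 17782 of the 21900 coding genes. In the strongest 10%, 2 of the 15 relatives and 2875 of the 21900 coding genes had a peak. Nothing is read from these counts of relatives. The number of coding genes with 2 or more peaks was 4564 within 5 kb and 13036 within 50 kb. It was 4541 at a −log10 q of at least 20 and 567 in the strongest 10%. No paired analysis was possible because each group has 1 library and no test was run. With pileups near 20 fragments, as at the weakest secondary peaks, counting error alone spans 2.64 to 6.36-fold at *Btbd1*.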
